A study of Mus musculus with 20 samples.

Results

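The 6 genes of the type IV collagen chains, Col4a1 to Col4a6, were followed through 20 mouse breast tumors. They were taken by gene name from a table of 43346 genes, and all 6 were listed once each. They were chosen by name as the 3 head-to-head pairs of the mouse genome and selected on the measured counts of Col4a6, whose uneven level across these tumors was already known. The levels of the members and of each pair over the tumors are therefore given as descriptions with no p-value, and a screen of the Lo tumors for single outlying values is descriptive too.

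Each tumor was a spontaneous breast tumor from its own female [BALB/c-neuT x FVB/J] F1 mouse, bred from a transgene-positive BALB/c-neuT father and a wild-type FVB/J mother. All 20 carried the activated rat neu oncogene (the rat form of Erbb2, which encodes the receptor HER2), so no sample without the oncogene was compared. The labels place 9 tumors in a group named Lo and 11 in a group named Hi without saying what the names stand for, and they give no treatment and no age for a single mouse. RNA came from small frozen pieces of tumor, so that every value is a sum over tumor, vessel and stromal cells of the piece, and fewer cells of a type and less RNA per cell cannot be told apart.

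Type IV collagen is the network-forming collagen of basement membranes, the sheets that lie under epithelia and around vessels. Its chains fold into trimers inside the cell, and trimers join through their globular ends outside it. The chains of Col4a1 and Col4a2 are found in nearly all basement membranes. Those of Col4a3, Col4a4 and Col4a5 form the network of the kidney glomerulus, and Col4a5 joins Col4a6 in the basement membranes of skin, smooth muscle and some glands, the mammary gland among them. Each pair of genes lies head to head, with the starts close together and transcription running apart.

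In mm10, Col4a1 (ENSMUSG00000031502) was listed at chr8:11198423-11312826 on the minus strand and Col4a2 (ENSMUSG00000031503) at chr8:11312805-11449287 on the plus strand, so that the genes overlapped by 22 bases at their starts. Col4a4 (ENSMUSG00000067158) was listed at chr1:82448423-82586849 on the minus strand and Col4a3 (ENSMUSG00000079465) at chr1:82586921-82722059 on the plus strand, with 71 bases between them. Col4a6 (ENSMUSG00000031273) was listed at chrX:141165403-141474076 on the minus strand and Col4a5 (ENSMUSG00000031274) at chrX:141475385-141689234 on the plus strand. This last pair was separated by 1308 bases, the widest gap of the 3. The sequences between or just before the starts are shown because they are what the partners of a pair share or do not share. They were read from RefSeq promoter windows on GRCm38.p6, which held a window for 5 of the 6 genes (none for Col4a3), and capitals mark the letters of a GC box (GGGCGG, or CCGCCC on the other strand), a CCAAT box (CCAAT or ATTGG) or a TATA box (TATAAA or TTTATA).
Overlap of Col4a1 and Col4a2, plus strand, chr8:11312805-11312826: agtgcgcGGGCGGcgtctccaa
Gap from Col4a4 to Col4a3, plus strand, chr1:82586850-82586920: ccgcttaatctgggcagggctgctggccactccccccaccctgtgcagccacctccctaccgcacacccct
Upstream of Col4a6, minus strand, chrX:141474077-141474326: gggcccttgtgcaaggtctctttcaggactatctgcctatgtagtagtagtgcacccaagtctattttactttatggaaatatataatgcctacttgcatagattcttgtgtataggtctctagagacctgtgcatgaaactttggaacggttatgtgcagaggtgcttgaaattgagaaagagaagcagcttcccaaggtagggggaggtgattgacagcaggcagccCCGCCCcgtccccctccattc
Upstream of Col4a5, plus strand, chrX:141475169-141475384: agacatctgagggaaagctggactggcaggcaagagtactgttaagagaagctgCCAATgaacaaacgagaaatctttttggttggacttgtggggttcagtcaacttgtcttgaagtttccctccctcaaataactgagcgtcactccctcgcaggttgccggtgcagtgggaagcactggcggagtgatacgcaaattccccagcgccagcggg

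The shared start of Col4a1 and Col4a2 held 1 GC box in its 22 bases, and the 71 bases between Col4a4 and Col4a3 held none of the 3 motifs. The 250 bases before Col4a6 held 1 GC box near its start and the 216 bases before Col4a5 held 1 CCAAT box, with no motif overlapping another. Over the full windows of 300 bases, the count of CpG dinucleotides was 37 at Col4a1, 33 at Col4a2, 14 at Col4a4, 11 at Col4a5 and 3 at Col4a6. The ratio of observed to expected CpG, which corrects for base composition, was 0.902 at Col4a1 and 0.818 at Col4a2 against 0.561 at Col4a5 and 0.172 at Col4a6. The median over all 32851 windows was 0.384, and 24.3% of windows had a lower ratio than Col4a6. On these full windows, GC boxes numbered 1 at Col4a1, 3 at Col4a2, 0 at Col4a4, 1 at Col4a5 and 1 at Col4a6. Both X-linked partners thus held a GC box there. CCAAT boxes numbered 1 each at Col4a1, Col4a2 and Col4a5 and 0 at Col4a4 and Col4a6. A GC box was present in 35.66% of all windows, a CCAAT box in 37.41% and a TATA box in 13.62%. None of the 5 member windows held the TATA box letters. These matches describe the letters and were not tied to binding or to transcription.

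The libraries held 38765682 to 65465755 counted reads per tumor. A ribosomal RNA locus took 6.29% to 27.7% of them, and the libraries correlated with each other at r = 0.962 to 0.989 over genes. Levels are given as RPKM (reads per kilobase of the listed gene length, scaled to the counted reads of the tumor), which allows genes to be compared, and as CPM (counts scaled to library size with TMM factors), which allows tumors to be compared.

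Col4a1 and Col4a2 were the most abundant chains, Col4a5 came next, and Col4a3 was close to the limit of detection. In RPKM, Col4a1 was at 84.3 ± 22.4 (SD, n = 20), from 52.0 in tumor Lo 7 through a median of 80.2 to 134.4 in Lo 8. Col4a2 was at 60.3 ± 17.3 RPKM, from 38.4 in Lo 7 through 54.8 to 101.9 in Lo 8. The same tumors thus gave the lowest and the highest RPKM of both partners. In CPM Lo 7 was again the lowest for both, but Hi 8 was the highest. Col4a1 had 897.7 CPM in Hi 8 and 850.1 in Lo 8, and Col4a2 had 627.8 and 625.8. Col4a5 was at 32.2 ± 3.14 RPKM, from 24.9 in Lo 6 through 32.8 to 36.0 in Lo 4, a range of only 1.45-fold; Lo 6 was also the tumor with the largest share of ribosomal RNA, 27.7%. Col4a6 was at 10.2 ± 7.73 RPKM, from 0.557 in Lo 3 through 12.2 to 20.2 in Hi 2, a range of 36.3-fold. Col4a4 was at 1.08 ± 0.295 RPKM, from 0.724 in Hi 5 through 1.02 to 2.10 in Lo 8. Col4a3 was at 0.0736 ± 0.0292 RPKM, from 0.0296 in Lo 1 through 0.0723 to 0.128 in Lo 3, which rested on 14 to 73 reads per tumor.

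Among the 18883 genes with enough reads to be tested, 97.5% had a lower mean RPKM than Col4a1 and 96.2% a lower one than Col4a2. The share was 91.8% for Col4a5, 72.4% for Col4a6, 26.2% for Col4a4 and 1.73% for Col4a3. The order of the levels in RPKM was kept within single tumors with 1 exception. Col4a1 was above Col4a2 in 20 of 20 tumors, although their ranges over the tumors overlapped. Col4a2 was above Col4a5, Col4a5 above Col4a6 and Col4a4 above Col4a3 in 20 of 20 tumors, each with no overlap of the ranges. Col4a6 was above Col4a4 in 14 of 20 tumors and below it in Lo 3, Lo 4, Lo 9, Hi 8, Hi 9 and Hi 11.

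**Figure D1:**
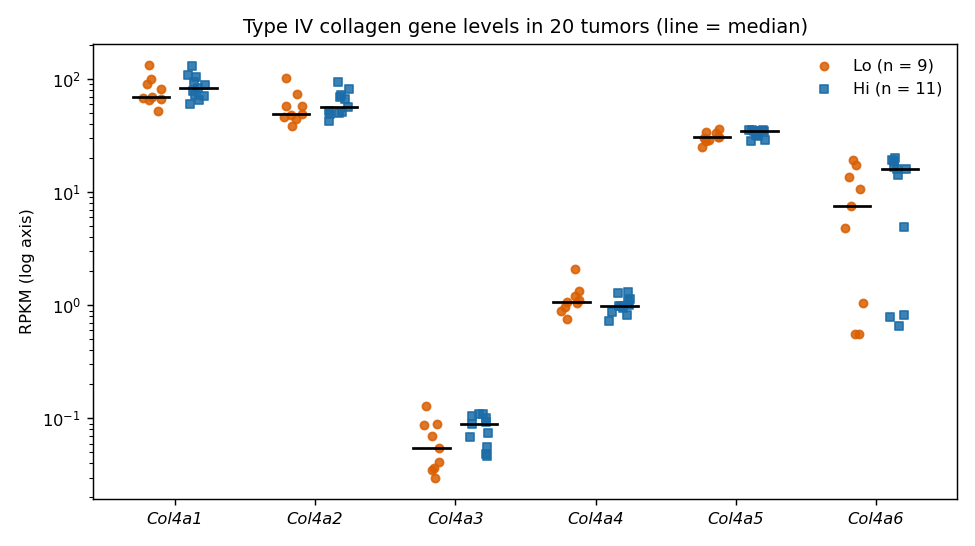
RPKM (log axis) of the 6 type IV collagen genes in each tumor, with Lo tumors as circles, Hi tumors as squares and the median of each group as a line. Col4a5 lay between 24.9 and 36.0 in all 20 tumors, whereas Col4a6 ran from 0.557 to 20.2 in tumors of both groups.

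Col4a6 had low, middle and high levels in both the Lo and the Hi tumors. Its lowest CPM values were 4.82 in Lo 3, 4.85 in Hi 9, 4.95 in Lo 4, 6.36 in Hi 11, 6.59 in Hi 8 and 8.69 in Lo 9. The next values were 35.9 in Lo 8, 40.8 in Hi 4, 65.4 in Lo 11 and 94.9 in Lo 2. The remaining tumors had 108.0 in Hi 7, 119.6 in Hi 3, 120.6 in Lo 1, 127.1 in Hi 1, 129.3 in Lo 6, 130.1 in Hi 6, 144.8 in Hi 2, 146.4 in Hi 10, 150.4 in Hi 5 and 150.5 in Lo 7. No tumor lay between 8.69 and 35.9 CPM, a step of 4.13-fold, and above that step the values filled the range more evenly. The lowest value in reads was 219 in Lo 4, so Col4a6 was detected in every tumor. Col4a5, transcribed in the opposite direction from a start 1308 bases away, ran from 181 to 267 CPM over the same tumors.

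**Figure D2:**
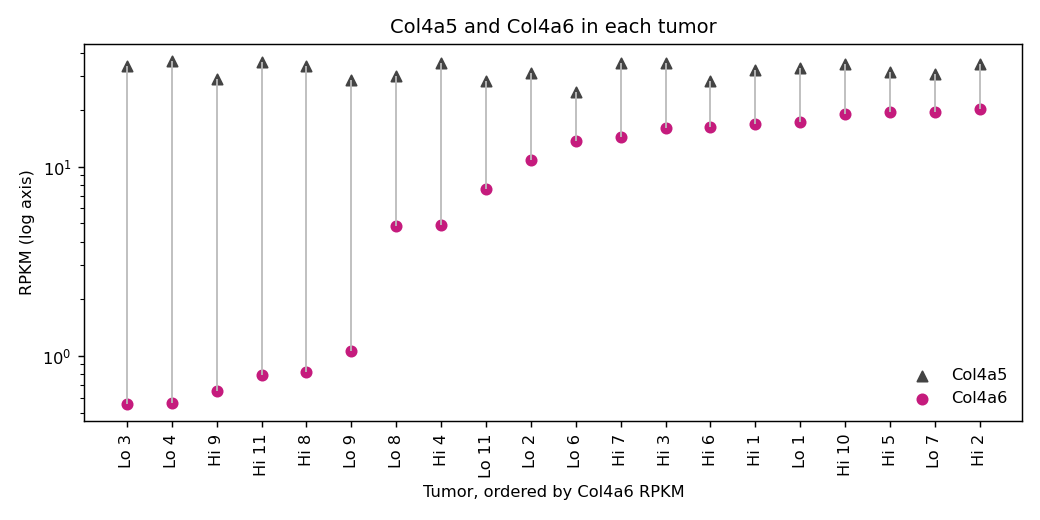
RPKM (log axis) of Col4a5 (triangles) and Col4a6 (circles) in each tumor, with tumors ordered by Col4a6 and a grey line joining the 2 genes of a tumor. The step from Lo 9 (8.69 CPM) to Lo 8 (35.9 CPM) separates the 6 lowest Col4a6 values from the rest, while Col4a5 stays within a range of 1.45-fold.

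The members differed in how much they varied across tumors. The SD of log2 CPM was 2.02 for Col4a6, 0.60 for Col4a3, 0.36 for Col4a2, 0.35 for Col4a4, 0.34 for Col4a1 and 0.15 for Col4a5. The median over the 18883 genes tested was 0.25, so that Col4a5 lay below it and the other 5 members above it. Col4a6 ranked 39 of 18883 by this SD, and 83.2% of genes had a larger SD than Col4a5. Counting error alone would give an SD near 0.23 for Col4a3 and 0.02 for Col4a6. Over all 18883 genes tested, 18 had a wider step than Col4a6 between neighboring tumors with at least 3 tumors on each side. Among the 13832 genes whose mean log2 CPM was 1 or more, 4 had a wider step. These were Acta1, Ckm, Myh4 and Ttn, which encode contractile and energy proteins of skeletal muscle.

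Within the pairs, Col4a1 and Col4a2 varied closely together, and Col4a4 and Col4a3 only loosely. Over the 20 tumors, the log2 CPM of Col4a1 and Col4a2 had r = 0.979 (Spearman's rho = 0.965), with r = 0.977 in the 9 Lo tumors and 0.982 in the 11 Hi tumors. Without Hi 8 and Lo 7, the tumors farthest from the median, r was 0.968. Each was the gene most like the other among 13831 genes. For Col4a4 and Col4a3 r was 0.280 (rho = 0.238), with 0.579 in the Lo tumors and 0.0918 in the Hi tumors, and it was 0.0197 without Lo 1 and Lo 8, so that this relation rested on those tumors. C430014B12Rik overlaps Col4a3 on the other strand and had 224 to 640 reads per tumor, against 14 to 73 for Col4a3. Since the strand setting of the counting is not stated, reads of these 2 genes cannot be told apart where they overlap. Set against 13831 genes by likeness to Col4a4, Col4a3 came at place 1729. Col4a3 is not one of those genes, since its mean log2 CPM was below 1. The Col4a6 values fell into separate levels, so no pooled relation with Col4a5 is given. The place of Col4a5 in the ranking of likeness to Col4a6 uses that pooled relation, so it is not given either. All values of a pair come from the same libraries and share their depth and scaling, and these correlations carry no test.

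**Figure D3:**
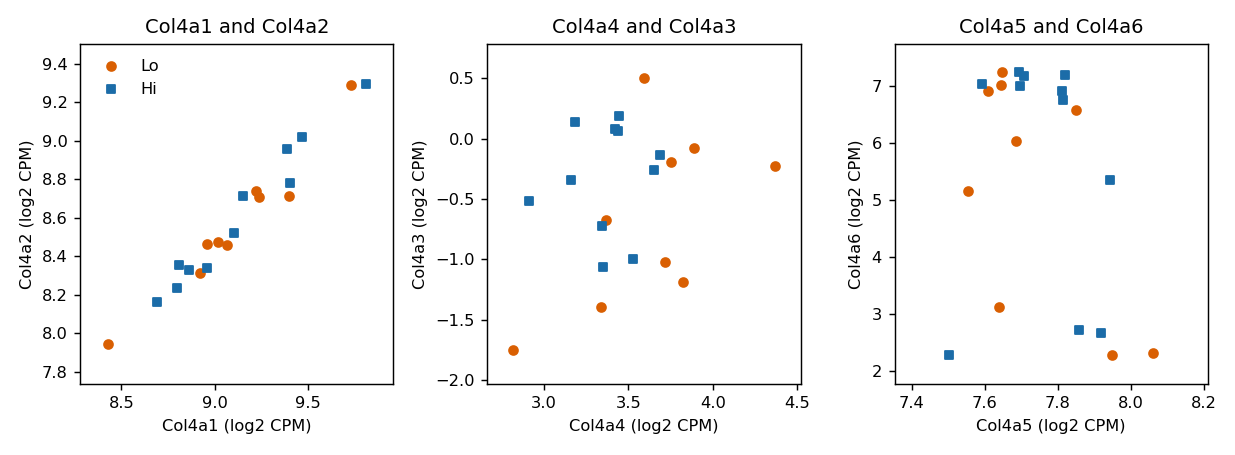
Log2 CPM of the partners of each head-to-head pair, 1 point per tumor, with Lo tumors as circles and Hi tumors as squares; the axes of each panel have their own range. Col4a1 and Col4a2 lie along a line (r = 0.979), Col4a4 and Col4a3 scatter, and Col4a6 covers a range of 4.82 to 150.5 CPM over a narrow range of Col4a5.

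The ratio of partners within a tumor does not depend on the scaling between tumors. Col4a2 over Col4a1 in RPKM had a median of 0.715, from 0.640 in Lo 4 to 0.763 in Hi 4, with an SD of 0.07 on the log2 scale. Col4a3 over Col4a4 had a median of 0.0659, from 0.0301 in Lo 2 to 0.125 in Hi 10, with an SD of 0.64. Col4a6 over Col4a5 had a median of 0.376, from 0.0156 in Lo 4 to 0.633 in Lo 7, a range of 40.5-fold with an SD of 2.08. The SD of this last ratio was 2.18 within the Lo tumors and 2.08 within the Hi tumors. In no tumor did Col4a6 reach the level of Col4a5.

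Counting error was small beside these differences for Col4a6. Of the 12020 reads of the X-linked pair in Lo 4, 1.82% came from Col4a6 (95% Wilson interval 1.60% to 2.08%). The share was 2.61% in Hi 9 (2.35% to 2.89%) and 4.18% in Lo 9 (3.83% to 4.57%). It was 14.2% in Hi 4 (13.7% to 14.8%) and 16.0% in Lo 8 (15.4% to 16.7%). In Lo 7 it was 42.9% of 17460 reads (42.2% to 43.6%). For the weakly expressed pair the intervals were wide, with Col4a3 giving 2.75% of 509 reads in Lo 2 (1.65% to 4.56%) and 10.5% of 620 reads in Hi 10 (8.31% to 13.1%). The intervals cover counting error only.

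As shares of the summed RPKM of the 6 genes, Col4a1 made up 44.4% ± 3.42 (SD, n = 20), Col4a2 31.7% ± 2.61 and Col4a5 17.6% ± 3.18. Col4a6 made up 5.61% ± 4.50, from 0.305% to 13.7%. Col4a4 gave 0.593% ± 0.159 and Col4a3 0.0411% ± 0.0194. The sum itself ran from 141.5 RPKM in Lo 7 to 273.5 in Lo 8, with a median of 178.4. Lo 7, which had the lowest sum, had the highest ratio of Col4a6 to Col4a5.

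**Figure D4:**
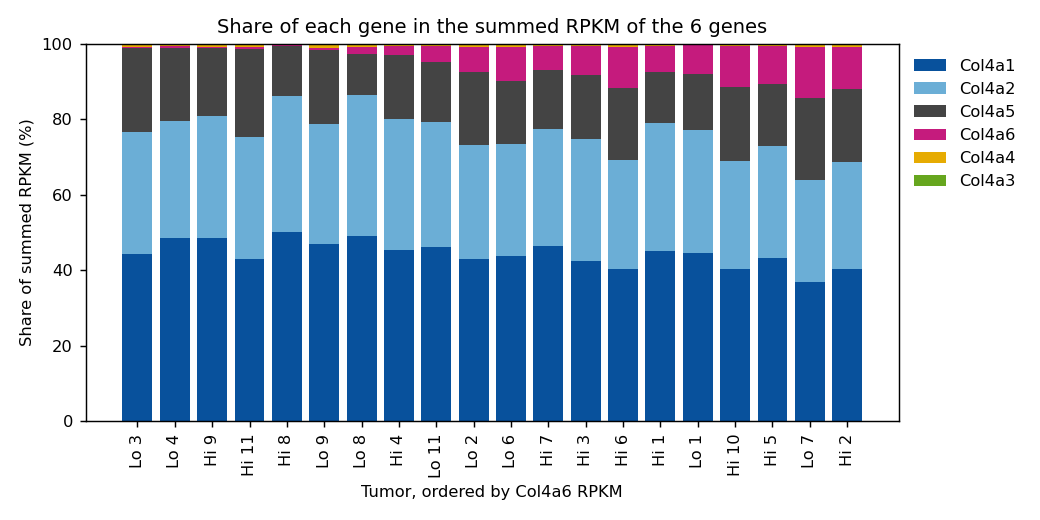
Share of each gene in the summed RPKM of the 6 genes (%), 1 bar per tumor, with tumors ordered by Col4a6 RPKM. Col4a1 and Col4a2 fill most of every bar, Col4a6 ranges from 0.305% to 13.7%, and Col4a4 and Col4a3 together stay too small to see well.

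None of the 6 members differed between the Lo and Hi tumors past the threshold of 0.05 after adjustment by edgeR's quasi-likelihood test with Benjamini-Hochberg adjustment, fitted on 18883 genes, and the background was as low, with 0% of genes called. At an unadjusted p under 0.05, 1 of the 6 members (Col4a4) and 5.44% of all genes passed (1028 genes). DESeq2 called 1 gene, Serpina3g, which is no member. Col4a4 had a mean of 12.8 ± 3.81 CPM in the Lo tumors (n = 9) and 10.4 ± 1.58 in the Hi tumors (n = 11), a log2 fold change of 0.30 (SE 0.139, edgeR adjusted p = 0.906). Its highest Lo value, in Lo 8, stood apart from the other Lo tumors. Col4a6 had 68.3 ± 57.6 CPM in the Lo tumors and 89.5 ± 61.3 in the Hi tumors, a log2 fold change of -0.39 with an SE of 0.739, so that the error was larger than the difference (edgeR adjusted p = 0.9996). The log2 fold changes of the other members were -0.02 for Col4a1 (SE 0.148), -0.04 for Col4a2 (SE 0.155), -0.26 for Col4a3 (SE 0.265) and -0.02 for Col4a5 (SE 0.0712). The Lo and Hi values overlapped for all 6 genes. At this spread a difference in Col4a6 of the estimated size was not detectable, while the SE of Col4a5 was the smallest of the 6.

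Partners of type IV collagen in the basement membrane, its processing enzymes and its receptors and proteases were examined as lists. Of 22 basement membrane genes, all were tested between Lo and Hi and 0 passed by edgeR, with 0 at an unadjusted p under 0.05, 9 with a higher and 13 with a lower estimate in Lo, and a median log2 fold change of -0.01 (all genes tested, 0.00). Of 16 processing genes, 0 passed and 0 were under 0.05 unadjusted. Of 18 receptor and protease genes, 17 were tested and again 0 passed or were under 0.05 unadjusted, with Mmp7 having at most 2 reads in a tumor.

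Across tumors, several basement membrane genes varied with Col4a1. Over the 22 genes the median r with Col4a1 was 0.315, 18 were above 0 and 5 were above 0.5, whereas 3.19% of all tested genes (603) were above 0.5. Col18a1, which encodes a vessel and epithelial basement membrane collagen with an endostatin domain, had the highest r at 0.747. Frem2 (0.672), a protein of the epithelial basement membrane, Nid2 (0.621), a nidogen that links laminin to type IV collagen, Col15a1 (0.562) and Hspg2 (0.542), which encodes perlecan, followed. Lama4, a laminin chain of vessels, had the lowest r at -0.18. With Col4a6 none of the 22 reached 0.5: the highest was Fras1 at 0.384 and the lowest Nid2 at -0.30. The lists were described by these counts and were not tested against other genes.

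Among the processing genes, P3h3 (listed as Leprel2), a prolyl 3-hydroxylase family member, had the highest r with Col4a1 at 0.728 and Colgalt1, which adds galactose to collagen, the lowest at -0.20. With Col4a6 the highest was P3h2 (listed as Leprel1), which modifies prolines of type IV collagen, at 0.39 and the lowest P4ha2, a subunit of prolyl 4-hydroxylase, at -0.40. Among receptors and proteases, Mmp10 had the highest r with Col4a1 at 0.672 on 4 to 49 reads per tumor, and Itga2, a collagen-binding integrin chain, the lowest at -0.42. With Col4a6 the highest was Itgb3 at 0.38 and the lowest Col4a3bp at -0.61; Col4a3bp encodes a ceramide transfer protein named for binding the Col4a3 chain. Col4a5 varied with a different set, Itgav (0.686), Plod2 (0.667) and Itgb1 (0.633), where Plod2 encodes a lysyl hydroxylase and the others are integrin chains.

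**Figure D5:**
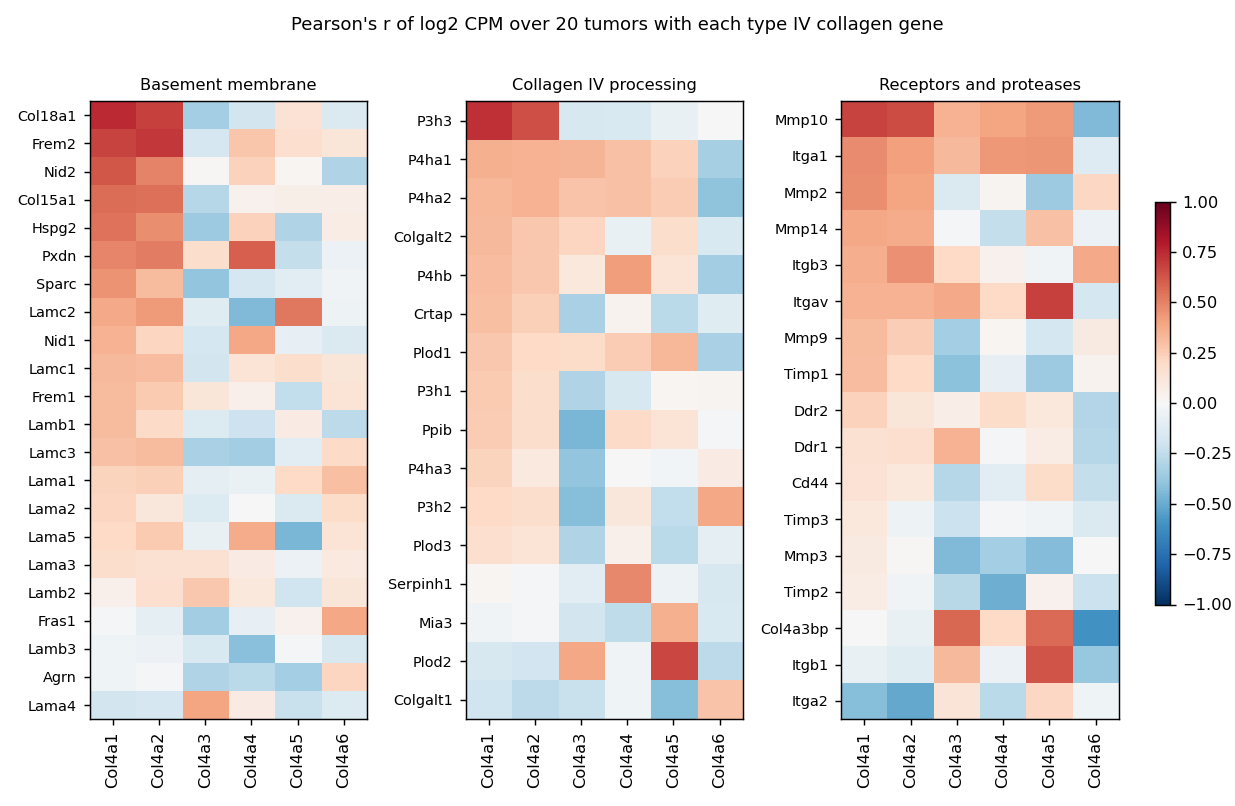
Pearson's r over the 20 tumors between the log2 CPM of each listed gene (rows) and each type IV collagen gene (columns), from blue (-1) to red (1), in 3 panels for basement membrane, processing, and receptor and protease genes. The Col4a1 and Col4a2 columns look alike, with Col18a1 at 0.747 for Col4a1, and the Col4a6 column stays pale, with the lowest value at Col4a3bp (-0.61).

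The genes most like each member, by Pearson's r of log2 CPM among the genes whose mean log2 CPM was 1 or more, were different for each pair. For Col4a1 they were Col4a2, Mcam (0.877), an adhesion molecule of vessel walls, Gm15419 (0.870), Qpctl (0.851) and Sec22c (0.819). For Col4a2 they were Col4a1, Gm15419 (0.911), Qpctl (0.858), Mcam (0.856) and Plxna1 (0.813). Gm15419 lies within Col4a2 on the other strand (chr8:11399186-11417892), and since the strand setting of the counting is not stated, its 155 to 463 reads per tumor cannot be told apart from reads of Col4a2. Mcam ran from 36.1 CPM in Lo 7 to 89.0 in Hi 8, the tumors with the lowest and highest Col4a1 CPM.

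For Col4a5 the most like genes were Snx25 (0.833), Tmed7 (0.801), Fuca2 (0.798), Sacm1l (0.794) and Lamp2 (0.775), of which Lamp2, a lysosomal membrane protein, is X-linked. For Col4a4 they were Dsg1c (0.738), Ubash3b (0.729), Stk32b (0.728), Rest (0.720) and Bbs5 (0.702). All 5 of these were highest in Lo 8, as Col4a4 was. For Col4a3 they were Osbpl8 (0.793), Zfp563 (0.759), Epg5 (0.757), Ythdf3 (0.751) and Gprasp2 (0.749). The level of Col4a3 itself went with the depth of the library (r = 0.615, rho = 0.674 with the log2 total count), and the part of depth in these values was not tested.

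For Col4a6, 48 of 13831 genes had r above 0.5, against 668 for Col4a5, 513 for Col4a1, 484 for Col4a2, 445 for Col4a3 and 199 for Col4a4. On the negative side, 229 genes had r under -0.5 with Col4a6, against 403 for Col4a5, 338 for Col4a1, 371 for Col4a2, 502 for Col4a3 and 281 for Col4a4. The highest was Gyk, an X-linked glycerol kinase gene, at 0.751 (rho = 0.609), which ran from 62.9 CPM in Hi 9 through 92.2 to 124.5 in Lo 6. Phf19 (0.688), Pam16 (0.652), the X-linked tRNA methyltransferase gene Trmt2b (0.615) and Gm20479 (0.611) came next. The lowest were Golga7 (-0.80), the X-linked Gm14698 (-0.76), Zfp935 (-0.72), Ptpn12 (-0.72) and Cnot7 (-0.71), and these 5 were all highest in Lo 3, the tumor with the lowest Col4a6. Golga7 ran from 65.9 to 86.7 CPM, a far narrower range than Col4a6. Because the Col4a6 values fall into separate levels, these r values are a description only.

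Markers of other cell types in the pieces were measured beside the members, as summed RPKM of each marker list. Epithelial markers (5 genes) were high in every tumor, at 1254 to 2009, with none of the 5 at 0 in any tumor. The 6 basal and myoepithelial markers summed to 1.91 to 5.98 in the Lo tumors and 2.36 to 29.4 in the Hi tumors, and Krt5 and Krt14, which define basal cells, had medians of 0.477 and 0.0994 RPKM. Their sum had r = 0.0216 with Col4a6. The 6 endothelial markers summed to 8.16 to 19.0 in Lo and 9.69 to 19.1 in Hi tumors, and the 5 pericyte markers to 33.7 to 49.5 and 31.95 to 47.3. The pericyte sum had r = 0.627 (rho = 0.591) with Col4a1 and 0.555 (rho = 0.496) with Col4a2. For the endothelial sum r was 0.443 (rho = 0.409) with Col4a1 and 0.309 (rho = 0.238) with Col4a2. The part of vessel cells in the levels of Col4a1 and Col4a2 was not tested. With Col4a6 the pericyte sum had r = -0.04, the fibroblast sum 0.188, the smooth muscle sum 0.135 and the leukocyte sum -0.05. The adipocyte sum had the largest r in size with Col4a6 among the marker lists, -0.30 (rho = -0.19). The endothelial sum had -0.19, the skeletal muscle sum 0.155, the podocyte sum -0.11 and the epithelial sum -0.004. The part of these cell types in the level of Col4a6 was not tested.

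The neighbors that could be tested varied less than Col4a6. Within 1 Mb of the X-linked pair, 12 other genes had enough reads, and their SD of log2 CPM lay between 0.11 and 0.61, against 2.02 for Col4a6. Atg4a, an autophagy protease gene next to Col4a6, had r = 0.182 with it. Gm15298, the nearest tested gene past Col4a5, had r = 0.053 with Col4a6. Over the 12 genes, r with Col4a6 ran from -0.43 for Nxt2 and -0.42 for Tmem164 to 0.294 for Tsc22d3. Within 1 Mb of Col4a1 and Col4a2 the nearest tested genes on either side that do not overlap the pair, 9530052E02Rik and Rab20, had r = -0.28 and -0.12 with Col4a1, against 0.979 for Col4a2. Beside Col4a4 and Col4a3, Rhbdd1 and Mff had r = 0.184 and 0.202 with Col4a4. None of the 12 tested neighbors of any pair passed between Lo and Hi by edgeR.

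The level of each chromosome that carries a pair, taken as the median over its other genes of the deviation from each gene's own median and set against the autosomes, was placed beside the members. For chromosome X (361 genes) it ran from -0.09 in Lo 8 to 0.06 in Lo 3 on the log2 scale, with r = 0.533 (rho = 0.522) with Col4a5 and -0.26 with Col4a6. For chromosome 8 (651 genes) it had an SD of 0.03, with r = 0.250 with Col4a1. For chromosome 1 (722 genes) it was low in 3 tumors, -0.30 in Lo 8, -0.23 in Hi 7 and -0.13 in Hi 5, against -0.04 to 0.07 in the rest. Col4a4, on chromosome 1, was at its highest in Lo 8 on both scales (2.10 RPKM, 20.7 CPM). Its lowest CPM was 6.99 in Lo 1, where the chromosome level was 0.01, and 7.49 CPM was found in Hi 5. The reads counted on Erbb2, the driver's mouse counterpart, gave 27.0 to 47.6 RPKM (median 37.6). The r of Erbb2 with the 6 members lay between -0.32 and 0.247. Since reads were aligned to mm10, reads of the rat neu transgene may have been counted on Erbb2, which was not tested.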

How the data were processed

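RNA of 20 tumors was sequenced in pairs from TruSeq libraries on a HiSeq4000. Per the study's methods, reads were trimmed to 100 bases and aligned to mm10 within the MapRseq workflow; the submitters' processing notes name TopHat2 2.0.12 and featureCounts 1.4.4. The table that the authors deposited holds whole-number counts per gene for each single tumor, none pooled, beside a gene length from which RPKM was computed here. The strand setting of the counting is not given in the sources used here, so overlapping and antisense genes are uncertain. Since mm10 is a C57BL/6 genome, BALB/c and FVB/J reads could align unequally, which was not tested.

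Gene coordinates in the table matched GENCODE M21 for the 6 members. Lo and Hi tumors were compared by the quasi-likelihood test of edgeR 4.0.16 in R 4.3.3, after filterByExpr and TMM scaling, at a Benjamini-Hochberg adjusted p of 0.05, with DESeq2 1.42.0 as an alternative, and log2 CPM used a prior count of 2. Other values were computed with Python 3.11.15, pandas 2.3.3, scipy 1.17.1 and matplotlib 3.10.9. Tested on simulated data of 18743 genes for Lo against Hi, the fit recovered 157 of 200 genes that had been shifted by 1 log2 unit up or down, and called 6 others. A chromosome's level used its genes whose mean CPM was 5 or more.

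The members and lists were chosen with earlier results of these data known. Genes named were the 6 members, the 5 most like each by r (and the 5 least like Col4a6), the highest and lowest r of each list with Col4a1 and Col4a6, expressed neighbors and Erbb2. The other genes named were chosen after their values were seen. The parental origin of the active X chromosome and allele-specific reads were not used here.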

Additional observations from a re-analysis of the deposited data

Results flagged for a closer look

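Over the 9 Lo tumors, 9 sets of values were screened, the RPKM of the 6 members and the 3 log2 ratios of partners. The screen is a description, since the sets include values the members were selected on. By Dixon's criterion 1 set had a tumor far from the others. About 0.45 sets would be flagged by chance if values were normally distributed, which was not checked. The 3 ratios also reuse the 6 genes, so the 1 set is not read against 0.45. The flagged value was Col4a4 in Lo 8, at 2.10 RPKM against 1.35 in the nearest Lo tumor, a gap of 0.557 of the whole range. Sets of more than 10 tumors, the Hi tumors among them, were not examined in this way.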

How the results depend on the processing

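Of 85 alternative values, 69 kept their direction, or moved by less than their limit, 16 moved and 0 reversed. No member passed between Lo and Hi by edgeR or DESeq2 under any setting run. Over all genes, the count of 0 became 1 of 31853 with no filter on low counts (Mir7671, lower in Lo) and 1 with DESeq2 (Serpina3g, higher in Lo). Replicate numbers did not pair the tumors. Of 9 shared numbers, 3 had r above 0.1 (range -0.418 to 0.208) and 1 tumor pair correlated best with its own number. In edgeR with the replicate number as a block, 0 of 18704 genes passed (858 at an unadjusted p under 0.05). That fit left out Hi 5 and Hi 10, whose numbers no Lo tumor shares and whose Col4a6 was high (150.4 and 146.4 CPM). In it the log2 fold change of Col4a6 went from -0.39 to -0.005 (SE 0.856) and that of Col4a4 from 0.30 to 0.18 (SE 0.153). Whether the block or the tumors left out moved these values was not tested. As TPM, median levels rose to 174.2 for Col4a1, 119.1 for Col4a2, 0.156 for Col4a3, 2.10 for Col4a4, 70.1 for Col4a5 and 24.2 for Col4a6, since TPM divides by another total; Col4a5 had 37.8 RPKM once the ribosomal RNA locus left the total. On log2(RPKM + 1) the SD fell to 0.0393 for Col4a3, 0.185 for Col4a4 and 1.52 for Col4a6, where the added 1 compresses low values. Without the 2 tumors farthest from the median, r was 0.968 for Col4a1 and Col4a2 and 0.0197 for Col4a4 and Col4a3; for the latter it was 0.579 in the Lo tumors alone. The SD of the log2 ratio of Col4a3 to Col4a4 was 0.51 in the Hi tumors alone, and the cause was not tested. With 14 to 73 reads per tumor, Col4a3 is limited by depth.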

Other observations

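Irs4, an insulin receptor substrate gene that lies next after Col4a5 on chromosome X, was chosen here after its values were seen. It had 4943 reads in Hi 4 and 33 in Hi 6, and at most 6 in each of the other 18 tumors. The neighboring Gm15295 had 152 reads in Hi 4 and 0 in the other 19 tumors. In Hi 4 Col4a5 was at 35.1 RPKM and Col4a6 at 4.91 RPKM.

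Pxdn, which encodes the peroxidase that cross-links type IV collagen trimers, and Lama5, a laminin chain, were also singled out after their values were seen. Pxdn was at 50.9 RPKM in Lo 8 and 21.6 in the next tumor, Hi 1. Lama5 was at 64.7 RPKM in Lo 8 and 35.1 in the next, Lo 1. Lo 8 was also the tumor with the highest RPKM of Col4a1, Col4a2 and Col4a4. In CPM, Hi 8 was the highest for Col4a1 and Col4a2.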
